A study of Mus musculus with 6 samples.

Results

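The genes described here mark the cells of cortical vessels and their surroundings: 22 endothelial genes, 12 genes of mural cells (pericytes and smooth muscle) and 7 genes of fibroblasts and meninges. They were chosen by symbol as genes of cells that arise outside the Emx1 lineage. Of the 41 named, 37 were measured among 15703 genes, namely 21 endothelial, 10 mural and 6 fibroblast genes. Slco1a4, Acta2, Tagln and Nupr1 were not analysed here. RNA came from the neocortex of 6 C57BL/6 mice taken on the day of birth (P0). The 3 conditional knockout (cKO) mice carried 2 floxed alleles of the transcription factor gene Tcf4 and 1 copy of a Cre recombinase under Emx1 (Tcf4 f/f; Emx1Cre/+). The 3 wild type (WT) mice are given without further alleles. Emx1 drives expression in the dorsal forebrain progenitors that give rise to projection neurons and glia, so this Cre acts mainly in neural cells. The stated purpose was to find which genes change when Tcf4 is lost.

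Brain endothelial cells are sealed by tight junctions and carry selective transporters, which together form the blood-brain barrier. Vessel growth into the cortex is driven by vascular endothelial growth factor (VEGF) and Wnt ligands released by neural cells and read by receptors on the endothelium. Pericytes wrap the capillaries and are recruited through the receptor Pdgfrb, while fibroblasts lie in the meninges and around larger vessels. Several of the genes are also made elsewhere: Slc2a1 and Slco1c1 in glia, Notch3 and Lgals1 in neural progenitors, and Ptgds in choroid plexus and oligodendrocytes.

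Levels are FPKM, read fragments scaled by the authors for exon length and to a common scale between libraries. Libraries are called by group and replicate number. Reads recovered from the FPKM values are approximate and came to between 25.3 M and 28.8 M in listed genes per library. Tcf4 itself had 56.5, 60.6 and 55.3 FPKM in cKO 1, 2 and 3, against 71.2, 75.6 and 75.3 FPKM in WT 1, 2 and 3. By Xist and Ddx3y, cKO 3 and WT 1 came from males and the other 4 libraries from females, so each group held 1 male. With 1 male per group, sex and the single animal cannot be told apart within a group. Tbr1, a transcription factor of deep-layer cortical neurons and so a marker of the labelled tissue, was at 39.5 ± 1.36 FPKM in cKO and 43.6 ± 1.14 FPKM in WT (SD, n = 3 each). In whole tissue, fewer cells of a type and less RNA per cell cannot be told apart. The labels do not say whether the animals were littermates.

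None of the 37 endothelial, mural and fibroblast genes passed the test, a limma adjusted p under 0.05, in either direction (Benjamini-Hochberg over all genes, n = 3 per group). Over all genes, 15.8% were called, 7.22% higher and 8.59% lower. At an unadjusted limma p under 0.05 there were 5 of 37 genes, or 13.5%, against 32.2% of all genes. These 5 were Igfbp7, Itm2a, Esam, Rgs5 and Emcn, each with a lower mean in cKO. The cKO and WT libraries did not overlap for 9 of the 37 (24.3%), of which 8 were lower and 1 was higher in cKO, against 37.3% of all genes. Over all 15703 genes the directions were nearly even, with 2942 lower and 2912 higher. By class there was no overlap for 8 of 21 endothelial genes (38.1%, 7 lower), 1 of 10 mural genes (lower) and 0 of 6 fibroblast genes. The log2 difference was below 0 for 26 of the 37 genes and for 7796 of all 15703 genes. The median log2 difference was −0.05 over the 37 genes and 0.0017 over all genes. By class it was −0.03 for endothelial, −0.08 for mural and −0.08 for fibroblast genes.

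The precision can be read from the 95% confidence intervals of the log2 differences. On the log2(FPKM + 1) scale, the intervals of all measured genes except Ptgds lay within 0.571 log2 units of 0, and 33 of these 36 lay within 0.5. This scale compresses the differences of low genes. On log2(FPKM + 0.1), 23 of the 36 intervals lay within 0.5, and the widest bound among the 28 genes with a mean of at least 1 FPKM was 0.784. The adjusted p missing the threshold does not show that a gene was equal in both groups.

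**Figure D1:**
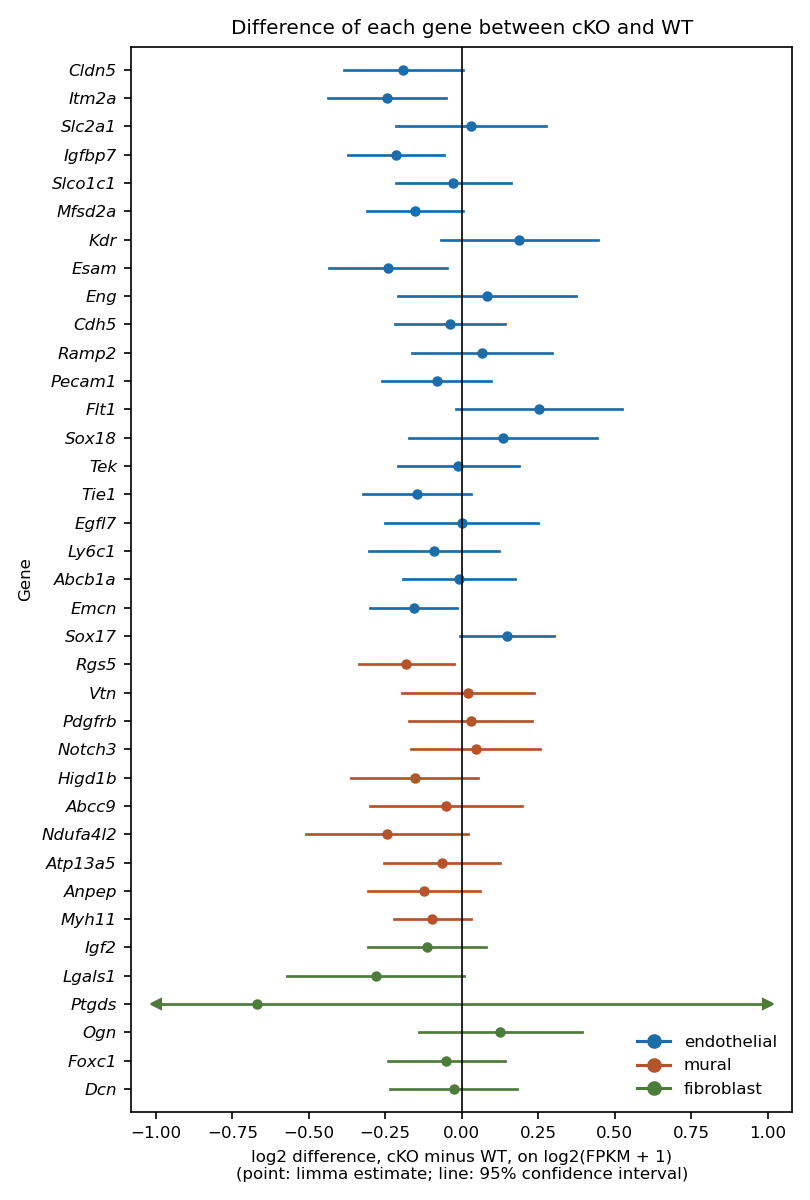
Difference between cKO and WT for the 37 measured genes, from limma on log2(FPKM + 1) with n = 3 per group. Points are log2 differences, cKO minus WT, and lines are 95% confidence intervals, with arrows where the interval of Ptgds (−2.72 to 1.38) runs past the axis. Every interval except those of Igfbp7, Itm2a, Esam, Rgs5 and Emcn includes 0.

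Levels spanned a wide range. Per kilobase, the pericyte gene Rgs5 was highest, with a mean of 22.1 FPKM over the 6 libraries, followed by the endothelial Cldn5 (19.8 FPKM) and Itm2a (16.5 FPKM). The endothelial median was 3.04 FPKM, the mural 2.87 FPKM and the fibroblast 1.43 FPKM. Myh11, the myosin heavy chain of smooth muscle, was lowest at 0.112 FPKM and rested on about 9 to 38 reads per library. It was the only contractile gene measured, so the mural genes here speak mostly of pericytes. Of the 37 genes, 19 had at least 200 recovered reads in every library, and 6 had under 50 in at least 1.

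Promoter sequences are shown for 4 endothelial genes: Cldn5, the most abundant, and Kdr, Flt1 and Itm2a, which were called only when 1 library was left out. Each is the 250 bases before the annotated start in RefSeq on GRCm38.p6 (the mm10 assembly), on the gene's own strand, lower case with E-boxes in capitals. The E-box, the letters CANNTG read on both strands, is the kind of site bound by basic helix-loop-helix factors such as Tcf4. The windows are chr16:18776597-18776846 (plus strand) for Cldn5, chr5:75978456-75978705 (minus) for Kdr, chr5:147726012-147726261 (minus) for Flt1 and chrX:107403361-107403610 (minus) for Itm2a.
Cldn5: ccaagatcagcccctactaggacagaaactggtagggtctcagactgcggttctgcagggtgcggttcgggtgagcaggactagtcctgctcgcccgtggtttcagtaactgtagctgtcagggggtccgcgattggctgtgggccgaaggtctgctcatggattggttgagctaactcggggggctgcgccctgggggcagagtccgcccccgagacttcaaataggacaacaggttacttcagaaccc
Kdr: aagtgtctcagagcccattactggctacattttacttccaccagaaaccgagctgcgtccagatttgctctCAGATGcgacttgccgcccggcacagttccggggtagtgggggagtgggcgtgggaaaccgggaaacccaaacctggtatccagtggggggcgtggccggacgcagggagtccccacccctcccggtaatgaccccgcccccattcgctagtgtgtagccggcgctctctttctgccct
Flt1: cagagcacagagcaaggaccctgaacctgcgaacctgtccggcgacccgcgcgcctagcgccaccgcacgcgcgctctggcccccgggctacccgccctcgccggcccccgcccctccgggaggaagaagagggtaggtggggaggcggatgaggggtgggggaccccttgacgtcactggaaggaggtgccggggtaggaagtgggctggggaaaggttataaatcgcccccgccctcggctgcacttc
Itm2a: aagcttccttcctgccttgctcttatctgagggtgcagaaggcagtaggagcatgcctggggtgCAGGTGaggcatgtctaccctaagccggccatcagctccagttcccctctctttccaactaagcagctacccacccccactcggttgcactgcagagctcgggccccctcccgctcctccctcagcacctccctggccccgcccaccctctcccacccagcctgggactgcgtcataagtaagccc
Kdr and Itm2a held 1 E-box each, that of Itm2a being CAGGTG, while the Cldn5 and Flt1 windows held none. Of 31 windows from the 25 measured genes with an entry, 20 (64.5%) held an E-box, against 66.2% of 32851 promoter windows of this length. CAGGTG, which is one form of the E-box, stood in 4 of the 31 (12.9%) and in 17.2% of all, counting both strands. A match is a description of the letters and not a binding site.

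Among the junction and surface genes of the endothelium, all 6 had a lower mean in cKO, with log2 differences of −0.24 to −0.04, and none was called. Cldn5 (ENSMUSG00000041378, chromosome 16, 18776847 to 18778262, plus strand, mm10), the main tight junction claudin of brain vessels, had 17.1, 17.7 and 20.6 FPKM in cKO 1, 2 and 3, against 19.2, 22.8 and 21.5 FPKM in WT 1, 2 and 3. The groups overlapped through cKO 3 and WT 1, the 2 male libraries. The log2 difference of Cldn5 was −0.19 (95% interval −0.39 to 0.0036, limma adjusted p = 0.162).

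Esam, an immunoglobulin-family adhesion molecule of endothelial junctions, had 3.39, 3.46 and 4.02 FPKM in cKO and 4.14, 4.60 and 4.63 FPKM in WT. The groups did not overlap, and the log2 difference was −0.24 (interval −0.43 to −0.05, limma adjusted p = 0.0844). Emcn, the sialomucin endomucin of capillaries and veins, was at 0.460 ± 0.0307 FPKM in cKO and 0.628 ± 0.0522 FPKM in WT, also without overlap, but on 54 to 84 reads per library (limma adjusted p = 0.122). Pecam1, the platelet and endothelial adhesion molecule, was at 2.49 ± 0.118 FPKM in cKO and 2.69 ± 0.101 FPKM in WT. Cdh5, the cadherin of endothelial junctions, was at 3.01 ± 0.174 FPKM in cKO and 3.12 ± 0.140 FPKM in WT. Ly6c1, a surface antigen of brain endothelium, was at 1.52 ± 0.170 FPKM in cKO and 1.68 ± 0.226 FPKM in WT. Ly6c1 has a near-identical neighbour, Ly6c2, which was not analysed here, so reads shared by the pair make its level uncertain.

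The receptors went in both directions. The VEGF receptor genes Kdr and Flt1 had higher means in cKO, and both split the WT libraries. Kdr (ENSMUSG00000062960, chromosome 5, 75932827 to 75978458, minus strand), the main signalling receptor for VEGF, had 4.91, 4.46 and 4.57 FPKM in cKO, against 3.45, 4.998 and 3.55 FPKM in WT. Flt1 (ENSMUSG00000029648, chromosome 5, 147561604 to 147726011, minus strand), a receptor that also traps VEGF, had 2.74, 2.29 and 2.58 FPKM in cKO, against 1.78, 2.58 and 1.61 FPKM in WT. In both genes WT 1 and WT 3 were below every cKO library, while WT 2 was above all 3 cKO libraries for Kdr and among them for Flt1. Kdr differed by 0.19 (interval −0.07 to 0.44, limma adjusted p = 0.284) and Flt1 by 0.25 (−0.02 to 0.53, limma adjusted p = 0.179). Without WT 2, both were called higher, Kdr by 0.33 (limma adjusted p = 0.0272) and Flt1 by 0.39 (limma adjusted p = 0.0251). Leaving out WT 2 also raised the calls over all genes, to 1572 higher and 1517 lower, against 1134 and 1349 with all libraries. Over all alternatives the adjusted p ran from 0.0272 to 0.609 for Kdr and from 0.0251 to 0.423 for Flt1.

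Tie1, the orphan partner of the angiopoietin receptor, was at 1.77 ± 0.0382 FPKM in cKO and 2.07 ± 0.0660 FPKM in WT, without overlap (log2 difference −0.15, limma adjusted p = 0.227). Tek, the angiopoietin receptor itself, was at 1.94 ± 0.133 FPKM in cKO and 1.97 ± 0.191 FPKM in WT. Eng, a co-receptor for transforming growth factor beta, was at 4.01 ± 0.314 FPKM in cKO and 3.79 ± 0.888 FPKM in WT. Ramp2, which pairs with a G protein-coupled receptor to bind adrenomedullin, was at 3.12 ± 0.254 FPKM in cKO and 2.95 ± 0.443 FPKM in WT, while Vps25 on the same strand covers 33.4% of its exons. Eng and Ramp2 were lowest in WT 3 (2.78 and 2.44 FPKM).

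The endothelial transcription factors Sox17 and Sox18, which act in vessel and arterial development, had higher means in cKO. Sox17 had 0.593, 0.560 and 0.624 FPKM in cKO, against 0.362, 0.544 and 0.411 FPKM in WT. It was the only gene of the 37 whose cKO libraries all lay above WT, on 45 to 69 reads per library. Its log2 difference was 0.15 (interval −0.0073 to 0.30, limma adjusted p = 0.172), and 16.9% of its exon length lies opposite a non-coding transcript. Sox18 was at 2.20 ± 0.382 FPKM in cKO and 1.93 ± 0.525 FPKM in WT.

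Of the 4 transporters of the blood-brain barrier, 3 had overlapping groups. Slc2a1, the glucose transporter of the barrier, had 12.8, 11.4 and 11.4 FPKM in cKO, against 12.6, 13.1 and 9.42 FPKM in WT, a log2 difference of 0.03 (interval −0.22 to 0.27, limma adjusted p = 0.881). Slco1c1, a thyroid hormone transporter, was at 11.0 ± 1.27 FPKM in cKO and 11.2 ± 0.304 FPKM in WT. Abcb1a, the drug efflux pump P-glycoprotein, was at 1.26 ± 0.103 FPKM in cKO and 1.27 ± 0.102 FPKM in WT, with 10.1% of its exon length opposite another transcript. Its close paralog Abcb1b was at 0.0937 ± 0.0460 FPKM in cKO and 0.156 ± 0.0693 FPKM in WT. Mfsd2a, a lipid transporter that limits transcytosis, was at 9.28 ± 0.572 FPKM in cKO and 10.4 ± 0.388 FPKM in WT. Its libraries did not overlap, and its log2 difference was −0.15 (interval −0.31 to 0.0035, limma adjusted p = 0.163).

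Of the remaining endothelial genes, Igfbp7, a secreted insulin-like growth factor binding protein of vessels, had the smallest adjusted p of the 37. Igfbp7 (chromosome 5, 77349240 to 77408041, minus strand) had 10.1, 10.1 and 11.4 FPKM in cKO, against 12.4, 12.8 and 11.9 FPKM in WT. Its log2 difference was −0.21 (SE 0.0709, interval −0.37 to −0.06, limma adjusted p = 0.0665), and every cKO library lay below WT. Of its exon length, 7.03% lies opposite the protein-coding gene Polr2b. With quantile normalisation it was called lower (limma adjusted p = 0.0448), and over all alternatives its adjusted p ran from 0.0448 to 0.216.

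Itm2a (chromosome X, 107397099 to 107403376, minus strand), a membrane protein of brain endothelium, had 13.8, 14.01 and 17.4 FPKM in cKO, against 17.8, 17.9 and 18.2 FPKM in WT. The male library cKO 3 was close to WT, while the female cKO 1 and cKO 2 were lower. In WT, the male WT 1 was level with the females, and with sex as a term the limma adjusted p was 0.0853. The log2 difference was −0.25 (interval −0.44 to −0.05, limma adjusted p = 0.0820). Without cKO 3, Itm2a was called lower by −0.35 (limma adjusted p = 0.0160), and over all alternatives its adjusted p ran from 0.0160 to 0.250. Egfl7, a matrix protein secreted by endothelium, was at 1.83 ± 0.158 FPKM in cKO and 1.85 ± 0.421 FPKM in WT. Gm20532 on the same strand covers 7.37% of its exons.

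**Figure D2:**
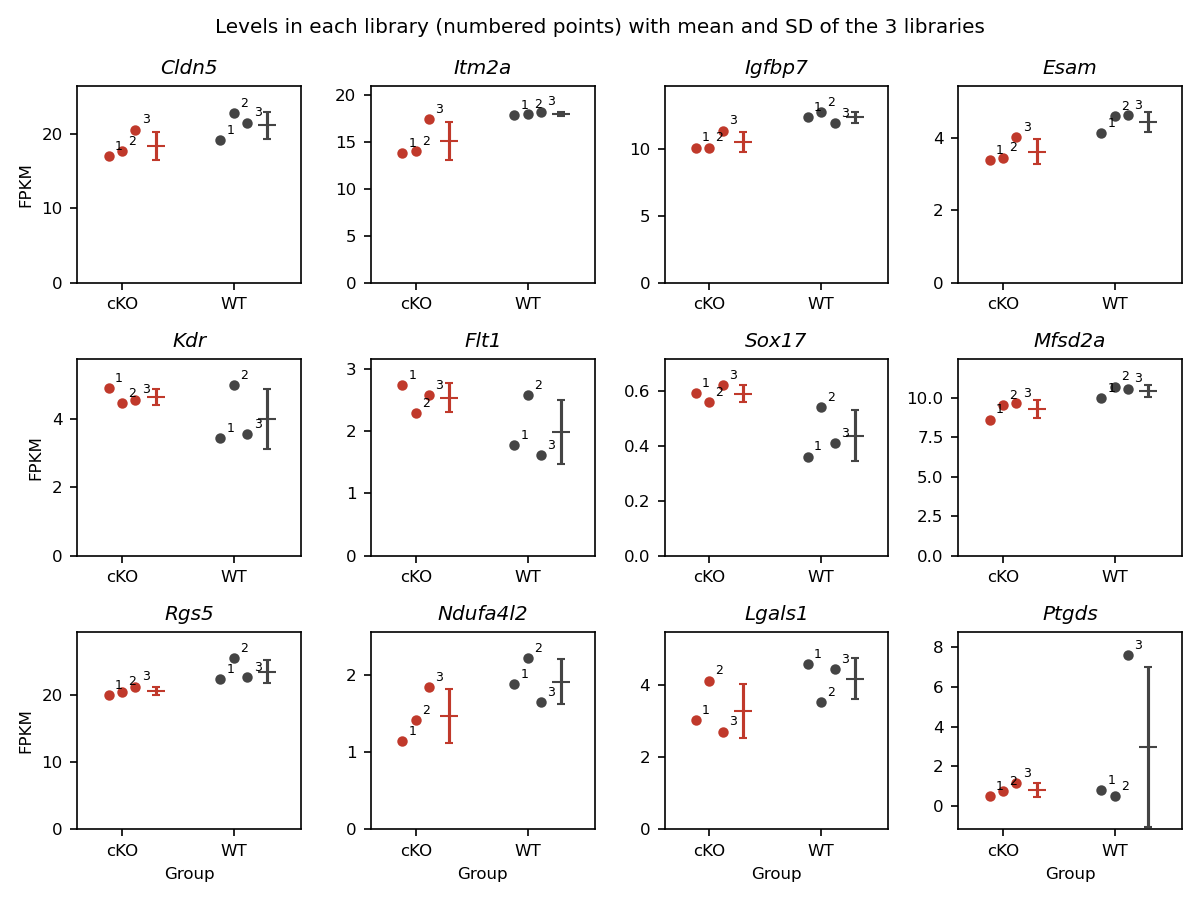
FPKM in each library for 12 genes, cKO left and WT right, with points numbered by replicate and bars at the mean and SD of the 3 libraries. In Kdr and Flt1, WT 2 sits apart from WT 1 and WT 3, at the height of the cKO libraries. In Ptgds, WT 3 alone is at 7.58 FPKM.

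Mural genes also held no called gene, with 7 of 10 means lower in cKO. Rgs5 (chromosome 1, 169655501 to 169695813, plus strand), a regulator of G protein signalling that marks pericytes, had 19.99, 20.6 and 21.3 FPKM in cKO, against 22.4, 25.6 and 22.7 FPKM in WT. It was the only mural gene whose groups did not overlap, with a log2 difference of −0.18 (interval −0.34 to −0.03, limma adjusted p = 0.105). It rested on 2150 to 2725 reads per library, the most of the 37. Pdgfrb, the receptor that recruits pericytes, had 3.77, 4.33 and 3.96 FPKM in cKO, against 3.80, 4.399 and 3.58 FPKM in WT (log2 difference 0.03, interval −0.17 to 0.23). Vtn, the pericyte matrix protein vitronectin, had 5.33, 5.25 and 6.89 FPKM in cKO, against 5.77, 5.68 and 5.61 FPKM in WT, so that cKO 3 alone stood above the rest.

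Notch3, the Notch receptor of mural cells, had 3.25, 3.35 and 3.17 FPKM in cKO, against 3.36, 3.41 and 2.65 FPKM in WT. Ndufa4l2, a mitochondrial protein of pericytes, had 1.14, 1.41 and 1.84 FPKM in cKO, against 1.88, 2.22 and 1.64 FPKM in WT. The groups of Ndufa4l2 overlapped, with a log2 difference of −0.25 (interval −0.51 to 0.02, limma adjusted p = 0.184) on 30 to 57 reads per library. Abcc9, a regulatory subunit of a potassium channel in pericytes, was at 2.78 ± 0.292 FPKM in cKO and 2.94 ± 0.538 FPKM in WT. Higd1b, a mitochondrial protein that marks pericytes, was at 2.67 ± 0.280 FPKM in cKO and 3.09 ± 0.279 FPKM in WT. The aminopeptidase gene Anpep was at 0.401 ± 0.0640 FPKM in cKO and 0.530 ± 0.148 FPKM in WT, and the cation pump gene Atp13a5 at 0.776 ± 0.123 FPKM in cKO and 0.858 ± 0.139 FPKM in WT. Myh11 was at 0.0747 ± 0.0261 FPKM in cKO and 0.149 ± 0.0528 FPKM in WT, with overlapping libraries. The mural median moved to −0.16 on log2(FPKM + 0.1), where low genes weigh more.

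The fibroblast and meningeal genes were low, with 5 of 6 means lower in cKO and none called. Igf2, an imprinted growth factor of meninges and vessels, had 4.21, 5.16 and 5.07 FPKM in cKO, against 5.01, 5.43 and 5.38 FPKM in WT (log2 difference −0.11, limma adjusted p = 0.396). Another gene on the same strand, Gm49394, covers 62.8% of its exons, so its level is uncertain. Lgals1, the lectin galectin-1, had 3.01, 4.11 and 2.70 FPKM in cKO, against 4.56, 3.51 and 4.43 FPKM in WT, with cKO 2 above WT 2 (log2 difference −0.28, interval −0.57 to 0.0077, limma adjusted p = 0.165).

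Ptgds, a prostaglandin synthase of the leptomeninges, had 0.512, 0.749 and 1.18 FPKM in cKO, against 0.815, 0.491 and 7.58 FPKM in WT. WT 3 was 6.44-fold above the next library, and Ptgds was the only gene in the table with WT 3 over 3 times every other library and over 0.5 FPKM. The log2 difference of −0.67 (interval −2.72 to 1.38, limma adjusted p = 0.6002) changed sign to 0.12 without WT 3. Among the other fibroblast genes, Dcn, a matrix proteoglycan, was lowest in WT 3 (0.430 FPKM, range 0.430 to 0.737 FPKM). Ogn had 1.13 FPKM there (range 0.687 to 1.41 FPKM) and Igf2 5.38 FPKM (range 4.21 to 5.43 FPKM). Lgals1 had 4.43 FPKM (range 2.70 to 4.56 FPKM) and Foxc1 0.896 FPKM (range 0.652 to 0.980 FPKM). Relative to each gene's mean, the fibroblast median, Ptgds included, was 0.10 log2 units in WT 3, the highest of all libraries. The choroid plexus gene Ttr had 1.37 FPKM in WT 3 (range 0.911 to 2.55 FPKM). Sostdc1, also of choroid plexus, was highest in WT 3 at 1.19 FPKM, close to WT 1 at 1.14 FPKM. The source of the Ptgds reads was not tested.

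Ogn, a small matrix proteoglycan, had 0.915, 1.41 and 0.849 FPKM in cKO, against 0.831, 0.687 and 1.13 FPKM in WT, the only fibroblast gene with a higher mean in cKO. Dcn was at 0.564 ± 0.144 FPKM in cKO and 0.593 ± 0.154 FPKM in WT. Foxc1, a forkhead factor needed by meninges, was at 0.818 ± 0.146 FPKM in cKO and 0.881 ± 0.107 FPKM in WT.

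Certain libraries were the highest or the lowest for many of the genes. WT 2 was the highest of the 6 libraries for 16 of the 37 genes, including 9 of 21 endothelial and 5 of 10 mural genes, and the lowest for 2. cKO 1 was the lowest for 13 genes and the highest for 1. The same counts were not made over all genes, so these may not be particular to the vascular genes. Relative to each gene's mean over the libraries, the median log2 level of the endothelial genes was −0.05, −0.06 and 0.06 in cKO 1, 2 and 3 and 0.02, 0.11 and 0.02 in WT 1, 2 and 3. That of the mural genes was −0.03, −0.09 and −0.0098 in cKO and −0.0020, 0.12 and 0.01 in WT. The summed level of the 37 genes was 157, 162 and 174 FPKM in cKO and 173, 188 and 179 FPKM in WT. The coefficient of variation between the 3 libraries of a group had a median of 9.51% in cKO and 13.4% in WT, and was widest for Ptgds in WT (135%).

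**Figure D3:**
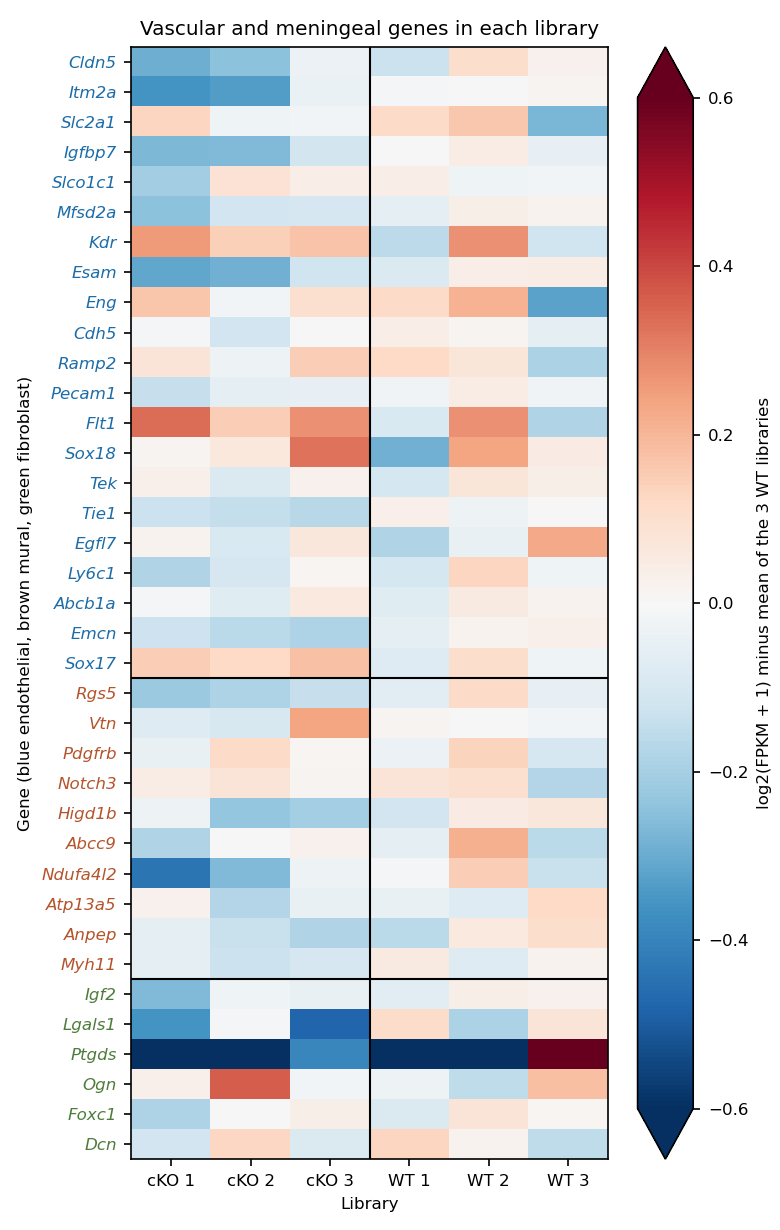
Levels of the 37 genes in each library, as log2(FPKM + 1) minus the mean of the 3 WT libraries. Rows are genes, grouped by class and ordered by level, and columns are libraries with cKO on the left. WT 2 is the highest library for 16 genes and cKO 1 the lowest for 13, and Ptgds in WT 3 runs past the scale.

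Further genes of the same cells were read from lists drawn up with earlier results of these data known. Over all genes, 8.59% were called lower and 7.22% higher. Of 32 further endothelial genes, 4 fell and none rose, with a list median of −0.11. They were the monocarboxylate transporter Slc16a1 (4.395 ± 0.387 FPKM in cKO, 6.89 ± 0.117 FPKM in WT, limma adjusted p = 0.00146), the amino acid transporter Slc7a5 (24.7 ± 1.26 FPKM in cKO, 30.2 ± 1.86 FPKM in WT), the tight junction gene Ocln (0.789 FPKM in cKO, 1.32 FPKM in WT) and the efflux pump Abcg2 (1.88 FPKM in cKO, 2.496 FPKM in WT). Slc16a1, Slc7a5 and Ocln are also expressed by other cells of the cortex. The Slc16a1 call held without each library in turn. Leaving out single libraries ended the call of Slc7a5 in 3 cases (highest adjusted p = 0.106), of Ocln in 4 (0.104) and of Abcg2 in 5 (0.126). The call of Abcg2 also ended with sex as a term (adjusted p = 0.0571). Without cKO 2, cKO 3 or WT 1, 1 of the 32 was called lower, and 2 without cKO 1. None of 10 further mural genes was called, 2 having an unadjusted limma p under 0.05. Of 11 further fibroblast and meningeal genes, 3 fell: Fbln1, Bmp7 and Pdgfra, of which Pdgfra also marks oligodendrocyte precursors. The matrix gene Fbln1 was at 3.94 ± 0.388 FPKM in cKO and 5.71 ± 0.220 FPKM in WT, the ligand gene Bmp7 at 0.853 ± 0.0661 FPKM in cKO and 1.45 ± 0.195 FPKM in WT, and Pdgfra at 6.11 ± 0.523 FPKM in cKO and 8.25 ± 0.528 FPKM in WT. The Fbln1 call held without each library, and without cKO 1 it was the only 1 of these 11. The call of Bmp7 ended without cKO 1 (adjusted p = 0.0509), and that of Pdgfra ended when either of 2 libraries was left out (highest adjusted p = 0.0566, without WT 1).

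Of 16 genes of the vascular basement membrane, 3 fell and none rose, where 8.59% of all genes were called lower and 7.22% higher. Fn1, fibronectin, was at 3.69 ± 0.160 FPKM in cKO and 14.5 ± 1.98 FPKM in WT, 3.92-fold lower (limma adjusted p = 5.24e-06), and Lamb1, a laminin chain, at 3.47 ± 0.285 FPKM in cKO and 5.36 ± 0.0743 FPKM in WT. The call of Sparc, a matrix glycoprotein, ended when any 1 of 5 libraries was left out (highest adjusted p = 0.148, without WT 1). These genes are also expressed outside vessels. The other 13, among them the collagen IV genes Col4a1 and Col4a2, were not called.

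Genes that signal between neural tissue and vessels held calls in both directions. Of 39 measured, 4 rose (Adm, Angpt1, Apln and Itgb8) and 7 fell, where 7.22% of all genes were called higher and 8.59% lower. Adm, the vasodilator peptide adrenomedullin, was at 1.35 ± 0.406 FPKM in cKO and 0.402 ± 0.121 FPKM in WT (3.35-fold, limma adjusted p = 0.00321). Angpt1, the ligand of Tek, was at 4.29 ± 0.308 FPKM in cKO and 2.90 ± 0.317 FPKM in WT (limma adjusted p = 0.0100). Apln, a peptide of sprouting endothelium, was at 3.83 ± 0.495 FPKM in cKO and 2.54 ± 0.559 FPKM in WT, a call that ended when any 1 of 5 libraries was left out (highest adjusted p = 0.116, without WT 1). Itgb8, an integrin chain of neural cells that activates transforming growth factor beta, was at 10.02 ± 0.775 FPKM in cKO and 6.69 ± 0.393 FPKM in WT.

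Among those that fell, Wnt7b, a Wnt ligand of the developing barrier made by neural cells, was at 9.12 ± 0.127 FPKM in cKO and 26.6 ± 3.09 FPKM in WT, 2.91-fold lower (limma adjusted p = 6.26e-06). Apcdd1, a Wnt inhibitor and target, was at 11.6 ± 0.647 FPKM in cKO and 19.3 ± 2.64 FPKM in WT (limma adjusted p = 0.00139). The neuropilins Nrp1 and Nrp2, receptors shared by VEGF and semaphorins, were at 11.1 ± 1.27 and 2.74 ± 0.481 FPKM in cKO and at 17.4 ± 1.44 and 5.33 ± 1.13 FPKM in WT. The 3 others, Reck, Fzd4 and Aplnr, were named after their values were seen. Leaving out single libraries ended the call of Reck in 4 cases (highest adjusted p = 0.0925, without WT 1), of Fzd4 in 5 (0.146, without WT 1) and of Aplnr in 5 (0.158, without cKO 1). With sex as a term the calls of Fzd4 and Aplnr also ended (adjusted p = 0.0661 and 0.0513). Without cKO 1, cKO 3, WT 1 or WT 3, 4 genes of the list were called lower. Vegfa itself was at 24.7 ± 4.23 FPKM in cKO and 17.9 ± 4.78 FPKM in WT and was not called (limma adjusted p = 0.107).

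Lists for other cell types gave the context of these values, beside the 8.59% of all genes called lower and 7.22% called higher. Of 17 microglia genes, 6 fell, including Ctss, Laptm5, Cd68 and C1qc, and of 17 GABAergic interneuron genes 6 fell, including Calb2, Dlx2, Sp8 and Sst, none rising in either list. Both cell types also lie outside the Emx1 lineage. Their medians were −0.33 and −0.20, but without WT 1 each list held 2 called genes, and without cKO 1 4 microglia and 2 interneuron genes. Of 17 astrocyte and radial glia genes, 10 fell and none rose, with Id3, Apoe, Mt1 and Glul at the smallest p. In the same list, Pax6, Hes1, Sox2 and Hes5, factors of neural progenitors named after their values were seen, had higher means in cKO and were not called. Pax6 was at 2.82 ± 0.336 FPKM in cKO and 2.26 ± 0.0509 FPKM in WT (limma adjusted p = 0.114), and Hes1 at 2.27 ± 0.430 FPKM in cKO and 1.75 ± 0.118 FPKM in WT (limma adjusted p = 0.137), both without overlap. Of 15 projection neuron genes 7 fell, including Cux1, Mef2c and Emx1. The cKO mice carried a Cre allele of Emx1 and the WT alleles are not given, so for Emx1 an effect of that allele cannot be told apart. The projection neuron count was 2 without WT 1 and 3 without cKO 2 or cKO 3. No test of the difference between these lists and the vascular genes was made.

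**Figure D4:**
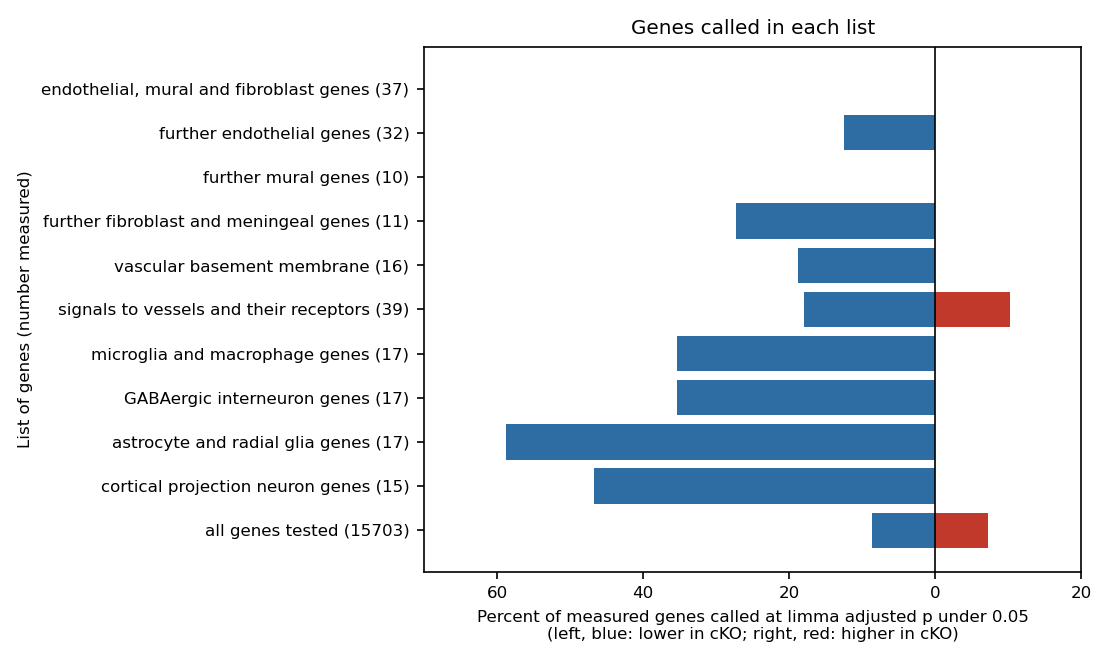
Percent of measured genes called at a limma adjusted p under 0.05 in each list, with those lower in cKO to the left of 0 and those higher to the right. The endothelial, mural and fibroblast genes show no bar, since 0 of 37 were called, against 15.8% of all genes tested.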

How the data were processed

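RNA of newborn neocortex was sequenced from 3 cKO and 3 WT mice, with Trizol extraction and TruSeq RNA libraries per the labels' protocols. The deposited values are FPKM, per the file headers. From the submitters' processing notes come bcl2fastq 1.8.4, STAR 2.5.4b, featureCounts 1.6.1, R 3.4.1, DESeq2 1.22.1 and the build mm10, with no role named. For the annotation, strand setting and low-level filter, details were not given in the sources used here. In all, 15703 genes were listed beside 139 blank lines, which were left out. Median-of-ratios factors over these values were 1.003 in every library, so the values were already on a common scale.

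Reads were recovered from FPKM and GENCODE M21 exon lengths (15655 genes matched). At the chosen library sizes, 94.8% to 96.0% of low values (up to 50 reads, exon length under 3000) lay within 0.1 of a whole read, against about 19.7% to 20.0% at other sizes.

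The design had provided for FPKM: limma 3.58.1 (R 4.3.3) on log2(FPKM + 1), with trend and robust moderation, genotype as the only term, over all genes, and no low-value filter. A gene was called at a Benjamini-Hochberg adjusted p under 0.05, and the fit was tested on simulated data. The simulated differences were set only in genes above a minimum level and were larger than any of the members in the main fit. The simulation therefore does not show how often differences of the members' size would be called. Python 3.11.15, pandas 2.3.3 and matplotlib 3.10.9 made summaries and figures. The members and all lists were chosen with earlier results of these data known. All members are named. Library values are given for the 3 highest members of each class, the 2 smallest p per direction and class, and members called without 1 library, and Esam was added after its values were seen. From each list come all called genes, or the 4 with the smallest p where over 5 were called in a direction. One gene that this rule names is not reported here. Each limma p-value sets the group difference against the spread between libraries within groups, moderated over all genes.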

Additional observations from a re-analysis of the deposited data

How the results depend on the processing

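The count of 0 members called in each direction held with a pseudocount of 0.1, a filter at 1 FPKM, no variance trend, log2(CPM + 0.5) and sex as a term, the last chosen after seeing the data. Median-of-ratios scaling gave the same count but could hardly change it, since its factor was 1.003 in every library. With the replicate block it was also 0, and the block changed no call among the 37 genes. Among the listed genes named above, it ended the calls of Abcg2, Fzd4 and Aplnr (adjusted p = 0.0653, 0.0603 and 0.0595). Same-numbered libraries did not deviate together (correlations of −0.05, 0.10 and −0.05), so the numbers were not taken as pairs. Quantile normalisation called 1 member lower. Without 1 library, 0 to 2 members were called higher and 0 to 1 lower. The mural median of −0.08 became −0.16 with a pseudocount of 0.1 and −0.14 on log2(CPM + 0.5), and the fibroblast median of −0.08 became −0.28 with the 1 FPKM filter, which left fewer genes. Over all genes, 544 to 1572 were called higher and 830 to 1517 lower without 1 library, against 1134 and 1349 with all. On log2(CPM + 0.5), 1701 were called higher and 1407 lower.

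Of 510 values of single members under alternatives, 476 kept their direction and stayed uncalled, 4 were newly called and 30 changed sign, none of them called. The 510 include median-of-ratios scaling, under which the values could hardly differ. The log2 difference changed sign with quantile normalisation for Abcb1a (0.0064), Egfl7 (0.0177) and Dcn (0.00057), and for Egfl7 also with a pseudocount of 0.1 (0.0049) and on log2(CPM + 0.5) (0.0123). Without 1 library, 15 members changed sign. Their log2 differences ranged from −0.0452 to 0.0233 for Abcb1a, −0.13 to 0.0548 for Abcc9, −0.10 to 0.0387 for Dcn, −0.0917 to 0.11 for Egfl7, −0.0794 to 0.19 for Eng, −0.0951 to 0.0167 for Foxc1, −0.0432 to 0.0936 for Notch3, −0.0215 to 0.0967 for Pdgfrb. The others ranged from −1.14 to 0.12 for Ptgds, −0.0297 to 0.13 for Ramp2, −0.11 to 0.11 for Slc2a1, −0.0841 to 0.0624 for Slco1c1, −0.00823 to 0.25 for Sox18, −0.0641 to 0.0275 for Tek and −0.0888 to 0.0791 for Vtn. At under 50 reads in some libraries, 6 members cannot show small differences.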

Other observations

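Red cell transcripts were measured beside the vascular genes. Of 4 erythroid genes measured, none was called and 1 had an unadjusted limma p under 0.05 (25.0%, against 32.2% of all genes). The alpha-globin gene Hba-a1 was at 20.4, 22.0 and 19.2 FPKM in cKO 1, 2 and 3, against 23.6, 21.2 and 20.9 FPKM in WT 1, 2 and 3. The erythroid haem synthesis gene Alas2 was at 1.18, 1.47 and 1.49 FPKM in cKO and 1.63, 1.68 and 1.42 FPKM in WT. The summed level of the 4 genes was 38.6, 43.8 and 39.2 FPKM in cKO and 47.7, 44.8 and 42.0 FPKM in WT.

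Choroid plexus genes were near the lower end of the table. Of 10 listed, 3 were measured, and Sostdc1, a secreted inhibitor of bone morphogenetic proteins, fell to 0.533 ± 0.234 FPKM in cKO, against 1.05 ± 0.213 FPKM in WT (limma adjusted p = 0.0371), a call that ended when any 1 of 4 libraries was left out (highest adjusted p = 0.127, without cKO 2). Ttr, the transthyretin gene that dominates choroid plexus RNA, was at 1.56 ± 0.871 FPKM in cKO and 1.23 ± 0.121 FPKM in WT, with 2.55 FPKM in cKO 3.

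Of 9 measured paralogs listed as close copies of members, 2 fell, where 8.59% of all genes were called lower. Itm2b, a relative of Itm2a, fell to 91.6 ± 4.57 FPKM in cKO, against 122 ± 1.95 FPKM in WT (limma adjusted p = 0.00189). Pdgfra fell as given above, with its call ending when either of 2 libraries was left out.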
